A study of Arabidopsis thaliana with 15 samples.

Results

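The ribosomal protein genes of Arabidopsis thaliana were examined here for 2 Polycomb marks in wild-type seedlings, monoubiquitination of a lysine of histone H2A (H2AK121ub) and trimethylation of a lysine of histone H3 (H3K27me3). They were taken as the nuclear protein coding genes whose annotated product contains "ribosomal protein", without products naming a kinase, a methyl group, mitochondria, chloroplasts, plastids, 50S or 30S, which gave 323 of 27444 genes. By product or symbol text, 166 were named for a large subunit, 122 for a small subunit and 11 for the acidic stalk of the large subunit. The other 24 had no stated subunit. An L or S number in the name was enough, so these sets also hold genes with organellar names or with another protein in the product. The choice was made on product text and did not use the marks. The text rule does not keep to cytosolic ribosomes: 10 of the 323 had plastid or mitochondrial names in their symbol, synonym or product (for example RPL4 with the synonym PRPL4), and the products of 19 others also named another protein, such as an elongation factor. Genes such as RPL12-A, RPL12-B and RPL12-C, which are known to encode plastid ribosomal proteins, also passed. The set is therefore called ribosomal protein genes below, without "cytosolic".

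The study profiled chromatin of whole Col-0 seedlings at 10 days after germination by ChIP-seq, with 2 libraries for each of 7 combinations of antibody and genotype (emf1, ring1ab, lhp1 and wild type, WT) and 1 WT input. The values here come from the 2 consensus peak lists of WT, which hold 16310 H2AK121ub and 4367 H3K27me3 peaks as positions alone. They carry no signal, no depth and no replicate values, so a gene is either under a peak or not, no replicate error can be given, and the mutants were not analysed here. A gene was counted as marked when at least 1 bp of a peak lay over its annotated body or the 750 bp upstream. Since whole seedlings were used, marks on all cells and marks on some cells cannot be told apart, and both marks over 1 gene may lie in different cells.

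Ribosomal proteins make up the protein part of the large and small ribosomal subunits, and in Arabidopsis most of them are encoded by small families of near-identical genes, so that several copies can supply 1 protein. H2AK121ub is placed by Polycomb repressive complex 1 and H3K27me3 by Polycomb repressive complex 2, and the Polycomb system is known for keeping developmental genes silent. H2AK121ub alone need not mean silence. The study proposes that it goes with chromatin that is less accessible yet permissive. It reports higher expression for genes with H2AK121ub alone than for genes with H3K27me3. Ribosomal protein genes are known as strongly and broadly expressed, and their promoters are known for the telo-box and site II motifs.

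Ribosomal protein genes carried both marks less often than other genes, and the gap was wider for H3K27me3. H2AK121ub lay over 195 of 323 ribosomal protein genes (60.4%, 95% Wilson interval 54.95% to 65.55%), against 70.2% of other genes of equal length and 68.1% of all protein coding genes. H3K27me3 lay over 54 of 323 (16.7%, 95% Wilson interval 13.0% to 21.2%), against 34.8% of other genes of equal length and 29.2% of all genes. Genes of equal length were the other protein coding genes within 10% of each member's length (at least 135 for every member), averaged over the members, and the intervals cover the number of genes only. The differences from genes of equal length were −9.81 percentage points for H2AK121ub and −18.0 points for H3K27me3. With coding length in place of gene length, the difference for H2AK121ub shrank to −4.11 points and that for H3K27me3 was −15.8 points. With marks counted over the gene body alone, the differences widened to −17.4 and −22.1 points for H2AK121ub and H3K27me3.

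By class, 150 ribosomal protein genes were only-H2AK121ub-marked (46.4%, against 41.3% of genes of equal length and 43.9% of all genes). Both marks (H2AK121ub/H3K27me3) were found over 45 (13.9%, against 28.9% of genes of equal length and 24.2% of all genes). Only 9 were only-H3K27me3-marked (2.79%, against 5.87% of genes of equal length and 4.93% of all genes). Neither mark was found over 119 (36.8%, against 24.0% of genes of equal length and 26.9% of all genes). The ribosomal protein genes were thus shifted from the class with both marks to the class with neither, while the only-H2AK121ub class was slightly larger than at equal length.

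**Figure D1:**
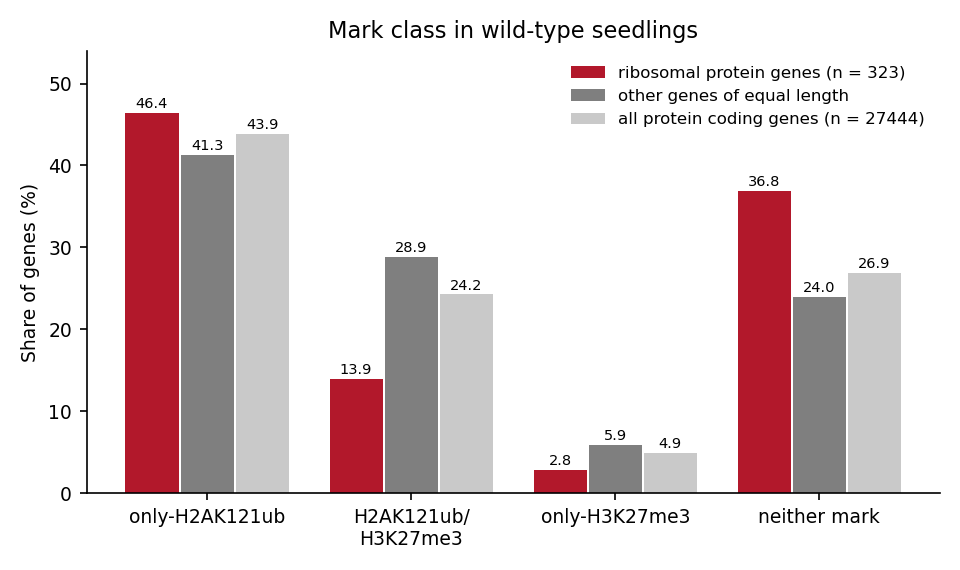
Share of genes (%) in each mark class for the 323 ribosomal protein genes, for other protein coding genes of equal length and for all 27444 protein coding genes, with the value over each bar. The bars of ribosomal protein genes are lower for both marks together (13.9%, against 28.9% at equal length) and higher for neither mark (36.8%, against 24.0%).

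For H2AK121ub, the gap between ribosomal protein genes and other genes was wider inside the genes than upstream of them. Any H2AK121ub in the 750 bp upstream was found at 35.6% of ribosomal protein genes, against 41.4% of genes of equal length, whereas any H2AK121ub in the body was found at 46.1% (149 genes), against 63.6%. At least 50% of the body was under H2AK121ub in 49 ribosomal protein genes (15.2%), against 40.4% of genes of equal length. The transcription start site (TSS, the outer end of the annotated gene) was under H2AK121ub in 63 ribosomal protein genes (19.5%), against 32.8% at equal length. The mean body cover by H2AK121ub was 18.5% in ribosomal protein genes, against 40.3% in genes of equal length, and the median ribosomal protein gene had 0% of its body under the mark, against 15.8% over all protein coding genes.

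Where H2AK121ub did lie over the body of a ribosomal protein gene, it mostly ended within a short stretch behind the TSS. In the 149 genes with the mark in the body, the main peak (that with most bases over the gene and its 750 bp upstream) began at a median of 59 bp after the TSS and ended at a median of 620 bp, with quartiles of 431 and 927 bp for the end. In other genes of equal length the main peak ended at a median of 1138 bp. At 250 bp into the gene 125 of 323 ribosomal protein genes were under H2AK121ub (38.7%), against 53.3% of genes of equal length. At 500 bp it was 84 of the 315 that reached so far (26.7%), against 52.2%. At 1000 bp it was 16 of 283 (5.65%), against 35.5%, and at 1500 bp it was 5 of 180 (2.78%), against 24.7%. From 250 to 1000 bp the share fell faster in ribosomal protein genes than in other genes, and from 1000 bp on few ribosomal protein genes were under the mark.

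H3K27me3 was low along the whole body of the ribosomal protein genes. It covered the TSS of 15 (4.64%), against 22.5% of genes of equal length, and the position 1000 bp into the gene in 9 of 283 (3.18%), against 23.1%. Any of the body was under H3K27me3 in 22 ribosomal protein genes (6.81%), against 28.9% at equal length. The remaining 32 of the 54 H3K27me3 genes were marked through the upstream window alone, which is 59.3% of them, against 16.8% of other H3K27me3 genes of equal length. In 18 of these 32 the midpoint of the peak lay inside another protein coding gene. For H2AK121ub, 46 of 195 were marked through the upstream window alone (23.6%, against 9.43%), and in 37 of the 46 the midpoint lay inside another protein coding gene. Genes with such a midpoint are counted as marked although the peak is centred on a neighbour. The share with such a midpoint among other genes marked through the upstream window alone was not computed.

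**Figure D2:**
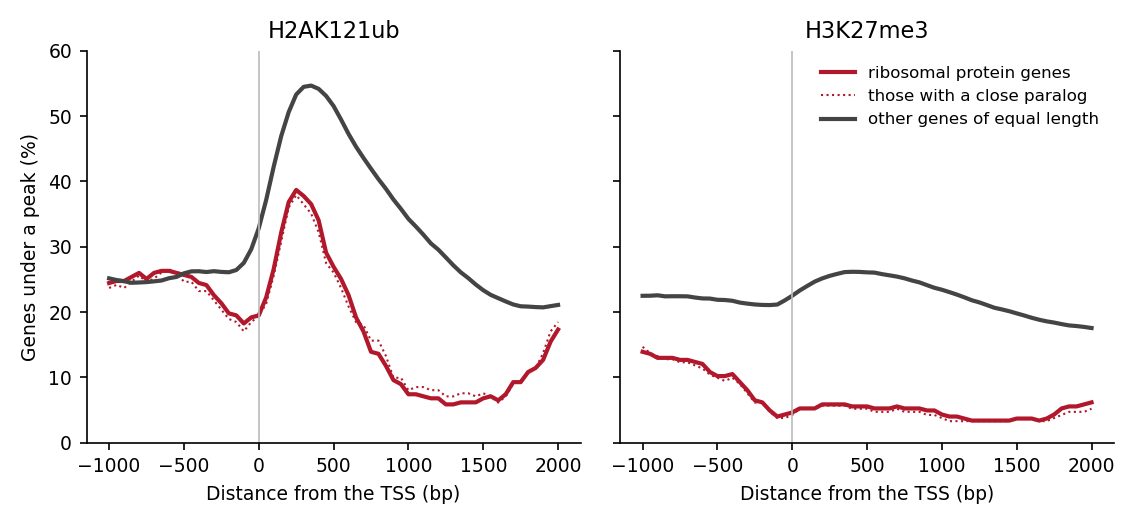
Share of genes (%) under an H2AK121ub peak (left) and an H3K27me3 peak (right) every 50 bp from 1000 bp before to 2000 bp after the TSS, also past the end of shorter genes, for the 323 ribosomal protein genes, for those with a close paralog (dotted) and for other genes of equal length. H2AK121ub over ribosomal protein genes peaks at 38.7% at 250 bp and falls faster than over other genes, which peak at 54.7% at 350 bp, and H3K27me3 is lower throughout.

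Genes of both subunits had each mark less often than genes of equal length. H2AK121ub lay over 101 of 166 large subunit genes (60.8%, against 70.1% at equal length), 72 of 122 small subunit genes (59.0%, against 70.2%) and 6 of 11 stalk genes (54.5%, against 69.7%). The difference between large and small subunit genes was 1.83 points and turned to −1.73 points among genes with a close paralog. H3K27me3 lay over 24 large subunit genes (14.5%, against 34.5% at equal length), 25 small subunit genes (20.5%, against 34.2%) and 3 stalk genes (27.3%, against 39.3%). The only-H2AK121ub class held 49.4% of large subunit genes, against 41.4% at equal length, and 41.8% of small subunit genes, against 41.8%. The difference between the subunits was not tested. A close paralog, a second ribosomal protein gene with at least 60% protein identity over at least 80% of the longer protein, was found for 211 of the 323 genes. Those genes had H2AK121ub in 57.3% (against 70.2% at equal length) and the 112 without one in 66.1% (against 70.1%). The text rule kept some organellar genes, and how they divide between these sets was not counted. The difference varied with gene length. Of the 81 longest ribosomal protein genes 71.6% had H2AK121ub, against 70.6% at equal length, and of the 80 genes in the quartile just below the median length 52.5%, against 70.9%.

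Heavy H3K27me3 over the body was found in 18 ribosomal protein genes, in which it covered at least 50% of the body (5.57%, against 25.3% of genes of equal length). In 10 of them it covered all of the body. These 18 genes were short, with a median length of 1030 bp (298 to 1566 bp), against 1591 bp in the other 305 ribosomal protein genes. Of the 18, 17 were shorter than the median member. Shorter genes had more H3K27me3 among other genes too. Mean body cover in other genes of equal length was 32.8% for the shortest quartile of members and 15.7% for the longest. In the members of these quartiles it was 18.2% and 0.642%. In 9 of the 18 the annotated gene begins at its start codon, which is the case for 16 ribosomal protein genes in all. H2AK121ub covered at least 50% of the body in 12 of the 18, against 15.2% of all ribosomal protein genes. It covered none of the body in 4 of the 18, and 46.1% of all ribosomal protein genes had any of it there. The same shares among other genes with heavy H3K27me3 were not computed. The 18 comprised 8 large subunit, 8 small subunit and 2 stalk genes. A telo-box or a site II motif was in the promoter of 15 of the 18, as in 72.4% of all ribosomal protein genes.

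Of the fully covered genes, 5 had no close paralog. The shortest member of all, AT1G33850 (S19 family, 298 bp, 70 residues), lay wholly under a 13268 bp H3K27me3 peak and had no H2AK121ub. AT1G12960 (L18e/L15 superfamily, 449 bp) had 100% of its body under H3K27me3 and 88.2% under H2AK121ub. AT4G16030 (L19e family, 1281 bp) had 100% under a 13025 bp H3K27me3 peak and 78.5% under H2AK121ub. These 3 genes encode 70, 104 and 114 residues, and the median over all 18 heavily covered genes was 149.5 residues, against 173 in the other 305 ribosomal protein genes. AT5G19720 (L25/Gln-tRNA synthetase anti-codon-binding domain, 170 residues) also had 100% under H3K27me3, with 68.1% under H2AK121ub. AT2G27535 (L10A family, 864 bp, 81 residues) lay wholly under a 2568 bp H3K27me3 peak and had no H2AK121ub. The same peak covered 67.5% of the upstream window of its neighbour PGY1 and none of the body of PGY1.

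In 9 of the 11 heavily covered genes that have a close paralog (81.8%), at least 1 paralog had no H3K27me3 in its body. That share was lower than over all ribosomal protein genes with a close paralog, where it was 205 of 211 (97.2%). The family of S15, a protein of the small subunit, has 6 copies. AT5G09490 and AT5G43640 had 100% of the body under H3K27me3 and no H2AK121ub, and AT5G09500 had 98.4% under H3K27me3 and 53.7% under H2AK121ub. RPS15 had no H3K27me3 and a 226 bp H2AK121ub peak over 14.4% of its body, AT5G63070 had 100% under H2AK121ub alone, and AT5G09510 had neither mark. AT5G09490, AT5G09500 and AT5G09510 lie side by side on chromosome 5. A single H3K27me3 peak of 5766 bp covered the first and nearly all of the second and ended before the third began. AT5G09510 and RPS15 encode proteins of 99.3% identity. With AT5G09510, the heavily covered copies AT5G09500, AT5G43640 and AT5G09490 share 92.6%, 91.3% and 86.2%, and AT5G63070, which has no H3K27me3, shares 61.2%.

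The S15a, L18, S23 and L2 families had 1 heavily covered copy each beside copies without H3K27me3. AT2G39590 (S15a, 660 bp) had 100% of its body under H3K27me3, and RPS15A, RPS15AD and AT5G59850 had none. AT2G47570 (L18) had 83.7% under H3K27me3 and 79.5% under H2AK121ub, and its paralogs RPL18 and AT5G27850 had neither mark. AT3G09680 (S12/S23 family) had 77.0% under H3K27me3 and 45.1% under H2AK121ub, and AT5G02960, with 95.8% protein identity, had neither mark. AT3G51190 (L2) had 93.6% under H3K27me3 and 84.5% under H2AK121ub, and it lay at the end of the longest H2AK121ub peak over any member (10757 bp). Its paralogs EMB2296 and AT4G36130 had no H3K27me3 but had 62.2% and 65.3% of their bodies under H2AK121ub. The families and genes singled out here beyond the naming rule were chosen after their values were seen.

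The stalk genes encode the acidic proteins that recruit translation factors to the large subunit. The pair AT3G28500 and AT5G40040, with 75.7% protein identity and 1 coding exon each, had 100% of both bodies under H3K27me3, and 93.4% and 100% under H2AK121ub. No other stalk gene had H3K27me3 in its body. Of the 9 others, AT4G25890 and AT5G57290 had 45.1% and 33.8% of the body under H2AK121ub, AT1G01100 and AT2G27710 were marked through the upstream window alone, and 5 had neither mark.

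**Figure D3:**
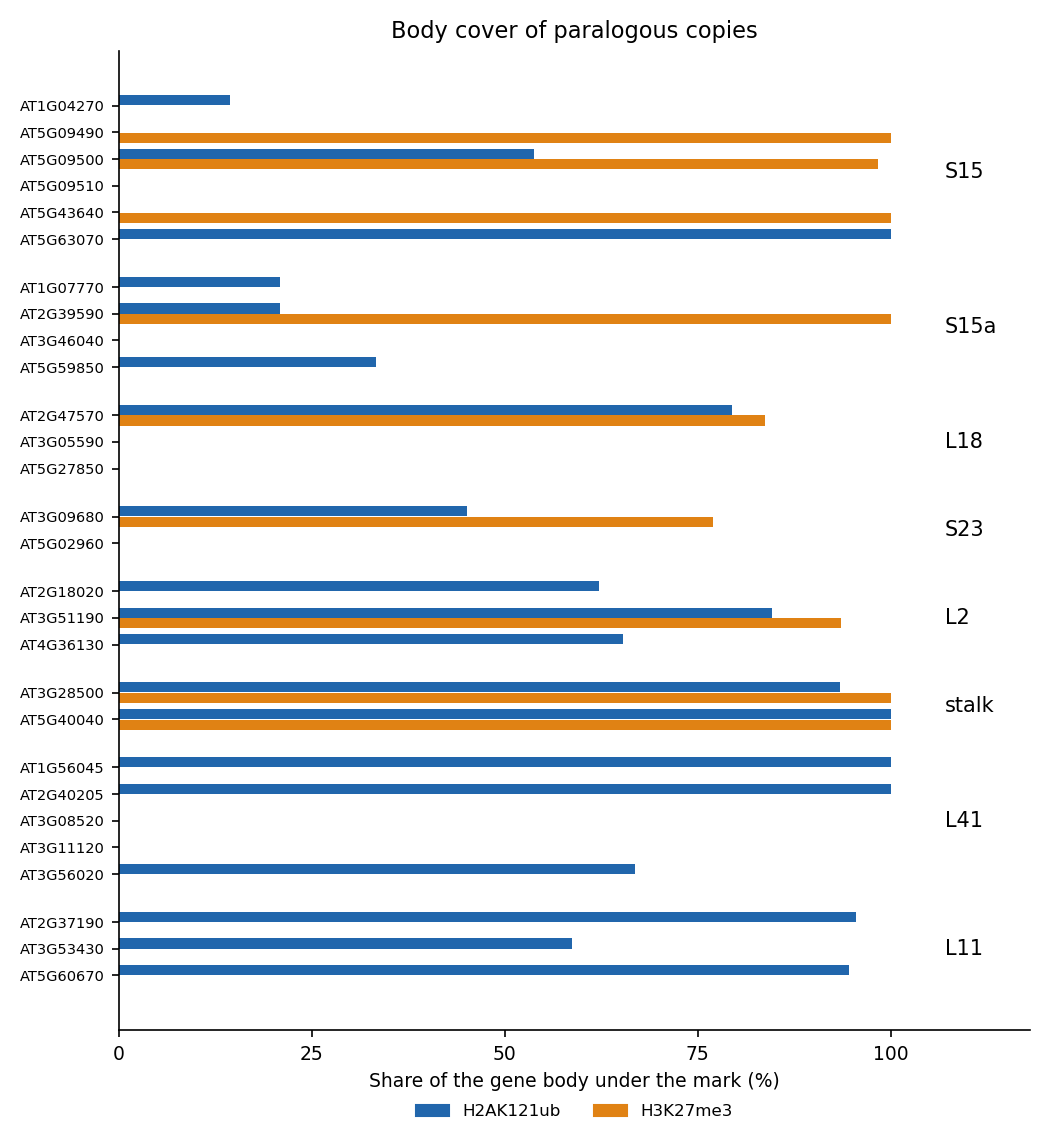
Share of the gene body (%) under H2AK121ub (blue) and H3K27me3 (orange) for each copy in 8 groups of paralogous ribosomal protein genes, named at the right, where no bar means 0%. The groups were chosen after their values were seen: H3K27me3 covers 77.0% of AT3G09680 but none of AT5G02960 in the S23 group, while the 3 genes of the L11 group all have over 50% H2AK121ub and no H3K27me3.

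The whole body was under H2AK121ub in 6 ribosomal protein genes: AT2G37600 (L36e), AT1G56045 and AT2G40205 (L41, the smallest ribosomal protein), AT5G40040, RPL12-B and AT5G63070. AT1G56045 lay under a 9343 bp H2AK121ub peak, the second longest over any member, and the third longest (8488 bp) reached the upstream window of AT1G77750 (S13/S18 family) but not its body. The L41 proteins are identical (25 residues), yet of the 5 copies AT1G56045 and AT2G40205 had 100% body cover by H2AK121ub, AT3G56020 had 66.9%, AT3G11120 had 0% with marks upstream, and AT3G08520 had neither mark. In the L11 family all copies were covered without H3K27me3: AT2G37190 had 95.5% of its body under H2AK121ub, AT5G60670 had 94.6% and AT3G53430 had 58.7%. Only 3 of 79 paralogous groups (L2, L11 and the stalk pair) had at least 50% body cover by H2AK121ub in every copy. At the low end among genes with H2AK121ub in the body, the cover was 0.0923% in AT3G18240 (S24/S35), 1.24% in AT5G48760 (L13 family, a 21 bp peak), 5.71% in AT2G42710 (L1p/L10e family), 5.87% in LOS1 (a product named S5/elongation factor G) and 8.25% in AT3G49080 (S5 domain 2-like). The longest member, MEE5 (4947 bp, with the same kind of product name), had neither mark.

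Close paralogs differed in H2AK121ub about as often as any 2 ribosomal protein genes that have a paralog. Of 79 groups of close paralogs, which held 211 genes, 48 had H2AK121ub over some copies and not others, 21 over every copy and 10 over no copy, and 54 held more than 1 mark class. H3K27me3 lay over every copy in 2 groups and over some copies in 25. Among the 204 pairs of close paralogs, 97 differed in the presence of H2AK121ub (47.5%, against 49.2% of all pairs that can be formed from the 211 genes), 71 had it over both and 36 over neither. Some differing pairs hold an unmarked copy with few unique 100 base words, where reads may not have been placed. The unique share was 0% in AT1G58684, AT1G58983 and AT1G59359, 41.1% in AT1G33120 and 38.1% in PGY2. Differences were also found between genes of identical proteins. The S18 genes PFL and RPS18C had neither mark, while AT1G34030 had both marks in its upstream window (86.4% under H2AK121ub and 75.2% under H3K27me3) and none in its body. Among the L14p/L23e genes, emb2171 had 19.5% of its body under H2AK121ub, and AT1G04480 had neither mark.

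Genes with a described mutant or role were searched by name. Of 25 names searched, 19 were found and pointed to 16 genes, of which 8 had H2AK121ub, 2 had H3K27me3 and 7 had neither mark, where 60.4%, 16.7% and 36.8% of all 323 ribosomal protein genes did. PGY1 (L10a), PGY2 (L9) and ATL5 (PGY3, L5), known from leaf polarity mutants, fell in different classes. PGY1 was only-H3K27me3-marked through its upstream window, and ATL5 had 29.97% of its body under H2AK121ub. PGY2 had neither mark, but only 38.1% of its 100 base words are unique in the genome, so reads there may not have been placed. RPL5B, the other L5 gene, had 28.8% of its body and 100% of its upstream window under H2AK121ub.

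The pointed-leaf genes PFL (S18) and RPS13A (PFL2, S13) had neither mark. RPS5A, known from the minute-like mutant aml1, had 18.2% of its body under a 313 bp H2AK121ub peak, and RPS5B had 31.4% of its body and 100% of its upstream window under the mark. RPS6 had 18.2% of its body under H2AK121ub and 59.7% of its upstream window under H3K27me3, and EMB3010 (RPS6B) had neither mark. STV1 (L24), SAC52 (L10) and RPL23AA (L23a) had H2AK121ub over 44.8%, 71.1% and 90% of the upstream window, and only RPL23AA had some in its body (14.1%). RPL10B, RPL23AB and RP1 (ARP1, L3) had neither mark. None of these 16 genes had over 31.4% of its body under H2AK121ub or any H3K27me3 in its body.

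The promoters of ribosomal protein genes were rich in the telo-box (AAACCCTA) and in site II motifs (TGGGCC or TGGGCT), searched on both strands from 250 bp before to 50 bp after the TSS, where TGGGCCCA holds a site II on each strand and counts as 2. A telo-box was found in 38.1% of ribosomal protein genes, against 6.22% of all genes, a site II motif in 65.0%, against 21.7%, and both in 30.7%, against 2.20%. The share with a telo-box fell to 16.4% when only the 250 bp before the TSS were searched, against 4.49% of all genes, and was then 19.0% with H2AK121ub and 12.5% without it. Over the longer window the shares with and without H2AK121ub lay close together: a telo-box was found in 38.5% of those with the mark and 37.5% of those without it, and site II in 64.1% and 66.4%. For H3K27me3 the telo-box was found in 51.9% of the 54 genes with the mark and 35.3% of the 269 without it, and site II in 70.4% and 63.9%. With the 9 letter telo-box, which has 1 more A at its 3′ end, the shares were 24.1% with H3K27me3 and 22.3% without it, so most of that difference was lost. Read the other way, H3K27me3 lay over 22.2% of the 99 ribosomal protein genes with both motifs, against 30.04% of other genes with both. It lay over 25% of the 24 with a telo-box alone, against 37.9% of other genes, over 14.4% of the 111 with site II alone, against 23.4%, and over 11.2% of the 89 with neither motif, against 30.4%. The telo-box alone thus had the highest share in both sets of genes. These are descriptions of letters in a window and not of binding.

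**Figure D4:**
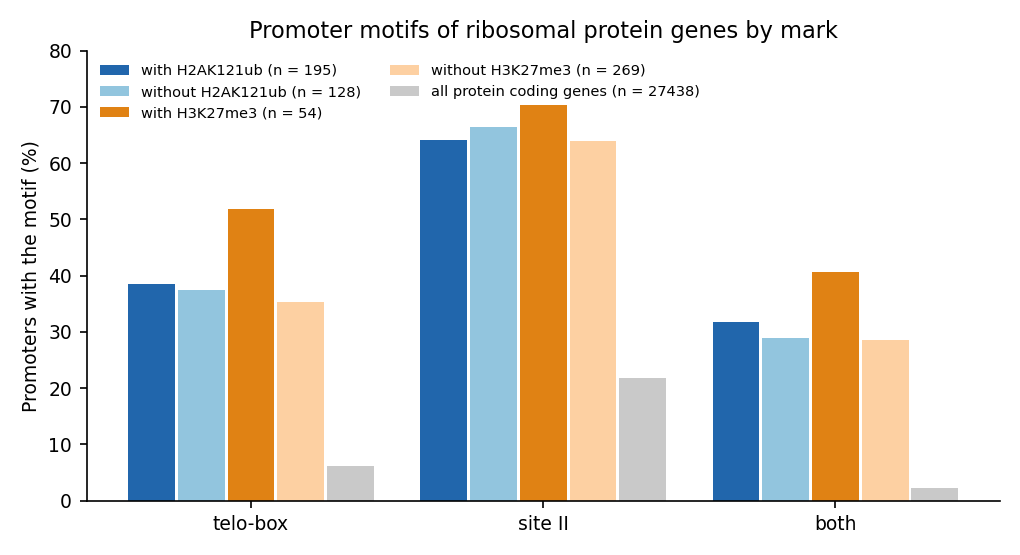
Share of promoters (%) with a telo-box, a site II motif or both from 250 bp before to 50 bp after the TSS, for ribosomal protein genes with and without each mark and for all protein coding genes. The shares with and without H2AK121ub differ little (38.5% and 37.5% for the telo-box), and all lie above those of all genes (6.22%). The 8 letter telo-box plotted here has 51.9% with H3K27me3 and 35.3% without it. The 9 letter form does not keep this difference (24.1% and 22.3%), while the 8 letter form keeps it in the 250 bp before the TSS alone (33.3% and 13.0%).

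The 250 bp before the TSS are shown for 3 pairs of paralogs whose copies differ in marks, because marked and unmarked copies can both hold the motifs. The windows were read from the RefSeq copy of TAIR10 in the direction of the gene, lie in no other annotated gene, and have telo-box and site II letters of either strand in capitals. For the S12/S23 family they are AT3G09680 (both marks, chr3:2970372-2970621, minus strand), with 1 telo-box and 2 site II motifs, and AT5G02960 (neither mark, chr5:694516-694765, minus strand), with 4 site II motifs. For S6 they are RPS6 (both marks, chr4:15347805-15348054, minus strand), with 1 site II motif, and EMB3010 (neither mark, chr5:3260255-3260504, minus strand), with 3. For the S4 family they are AT5G39850 (both marks, chr5:15949660-15949909, plus strand), with no motif, and AT5G15200 (only-H2AK121ub, chr5:4936430-4936679, minus strand), with 1 telo-box and 4 site II motifs.
AT3G09680: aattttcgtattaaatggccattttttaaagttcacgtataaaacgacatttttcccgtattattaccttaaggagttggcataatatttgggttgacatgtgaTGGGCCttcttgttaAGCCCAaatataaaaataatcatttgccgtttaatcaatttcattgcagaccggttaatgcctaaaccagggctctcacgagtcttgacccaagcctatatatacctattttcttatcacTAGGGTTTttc
AT5G02960: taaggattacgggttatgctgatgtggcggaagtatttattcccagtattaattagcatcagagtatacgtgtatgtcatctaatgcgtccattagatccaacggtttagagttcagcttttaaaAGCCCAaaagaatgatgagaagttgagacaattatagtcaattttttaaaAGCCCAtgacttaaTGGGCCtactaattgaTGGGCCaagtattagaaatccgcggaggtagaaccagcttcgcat
RPS6: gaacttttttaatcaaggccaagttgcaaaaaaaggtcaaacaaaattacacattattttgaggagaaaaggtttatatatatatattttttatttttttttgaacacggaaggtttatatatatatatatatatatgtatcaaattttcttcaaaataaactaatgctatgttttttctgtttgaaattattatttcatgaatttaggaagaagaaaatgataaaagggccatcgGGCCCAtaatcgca
EMB3010: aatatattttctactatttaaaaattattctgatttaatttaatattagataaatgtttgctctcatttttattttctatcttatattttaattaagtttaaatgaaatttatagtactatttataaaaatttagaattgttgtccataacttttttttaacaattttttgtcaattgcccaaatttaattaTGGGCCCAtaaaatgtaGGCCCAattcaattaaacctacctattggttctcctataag
AT5G39850: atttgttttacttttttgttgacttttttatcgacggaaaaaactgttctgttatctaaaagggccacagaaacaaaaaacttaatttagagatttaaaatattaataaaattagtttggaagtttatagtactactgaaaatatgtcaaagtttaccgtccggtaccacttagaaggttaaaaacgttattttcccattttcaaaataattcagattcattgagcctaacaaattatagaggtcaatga
AT5G15200: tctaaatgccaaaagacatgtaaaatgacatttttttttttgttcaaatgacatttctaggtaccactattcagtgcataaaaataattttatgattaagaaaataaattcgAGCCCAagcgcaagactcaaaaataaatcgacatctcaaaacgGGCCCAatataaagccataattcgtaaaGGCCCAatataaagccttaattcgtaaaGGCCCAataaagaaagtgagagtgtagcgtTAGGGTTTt

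In each of the 3 pairs the copy with both marks held fewer site II motifs in these 250 bp than the other copy. The pairs were chosen after their marks were seen, and this is a description of 3 pairs only. Over all ribosomal protein genes the presence of site II in these 250 bp went the other way. It was found in 63.0% with H3K27me3 and 56.9% without it, and in 60% with H2AK121ub and 54.7% without it. In the S4 pair the copy with H3K27me3 (56.6% of the body, with 83.4% under H2AK121ub) had no motif in these 250 bp (2 site II motifs follow within 50 bp after the TSS), and AT5G15200, with 20.7% of the body under a 336 bp H2AK121ub peak, had 5 in all.

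Other genes of translation were set beside the ribosomal protein genes. Translation factor genes (83, none of them a ribosomal protein gene by the text rule) had H2AK121ub in 50.6%, against 69.7% of genes of equal length, and H3K27me3 in 18.1%, against 25.9%. Their promoters held a telo-box in 18.1% and site II in 51.8%. The 20 organellar ribosomal protein genes that the text rule left out had H2AK121ub in 14 (70.0%, against 71.1% at equal length) and H3K27me3 in 5 (25%, against 35.8%). A lower share of H2AK121ub than at equal length was thus also found for translation factor genes, and the difference from ribosomal protein genes was not tested.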

How the data were processed

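ChIP-seq was run on WT, emf1, ring1ab and lhp1 seedlings (15 libraries, 1 of them input). Per the labels and the study's methods, the authors aligned reads by Bowtie to the TAIR10 genome, ran MACS2 on each WT replicate against input and intersected replicates into consensus lists. Versions are not given in the sources used here. The methods also describe combining data from younger WT seedlings, and the lists do not say which libraries they hold. The deposited files give peak starts and ends in bp, with no score, signal or depth, so no test, replicate check or stricter threshold was possible, and peak calling settings and mappability decide what counts as marked.

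Genes, products and the genome came from RefSeq for the same build. Marks were assigned to the body or 750 bp upstream with an overlap of 1 bp. Shares were compared with other genes within 10% of each member's length and given with 95% Wilson intervals. Paralogs came from blastp (BLAST 2.17.0, E-value up to 1e-05), grouped by single linkage. Scripts (Python 3.11.15, numpy 2.4.6, pandas 2.3.3, Biopython 1.88) were tested on simulated data. In 9 members under 90% of the 100 base words were unique, and 8 of these had neither mark.

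Members and lists were chosen with earlier results of these data known. Named genes were those with most H3K27me3 body cover (10), most and least H2AK121ub body cover (5 each) and the 3 longest H2AK121ub peaks. Also named were the 3 most alike paralog pairs that differ in H2AK121ub, genes with a described mutant or role, and the longest and shortest member. Alternatives were other regions, overlaps, peak lengths, merging, length tolerances, identity cut-offs, motif windows, member lists and leaving out each chromosome.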

Additional observations from a re-analysis of the deposited data

How the results depend on the processing

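Of 177 combinations of result and alternative, 150 met the limit set for them and 27 did not. A share, difference or median had to stay within the 95% interval of the reported value (Wilson intervals for shares). A difference that changed sign did not meet the limit. A count had to stay within 1.5 times of the reported count. Leaving out each chromosome, overlaps of 200 bp, peaks of at least 200 bp, merging within 500 bp and other identity cut-offs were among the 150. Merging within 500 bp could not change which genes were marked, because every region scored for a mark is longer than such a gap. Its combinations for shares, differences, classes and paralogous groups therefore had to meet the limit. Only body cover and the share of TSSs under the mark could have changed. With the gene body alone, 46.1% of members had H2AK121ub and 6.81% H3K27me3, the differences from genes of equal length were −17.4 and −22.1 points, and 17 members had both marks and 5 H3K27me3 only. With 1500 bp upstream, 65.9% had H2AK121ub. Against all other genes the H3K27me3 difference was −12.6 points, and by coding length the H2AK121ub difference was −4.11 points. At the start codon 28.8% had H2AK121ub. Among the 65 members named for 40S, 60S, RPL, RPS or acidic P, the classes held 25 (H2AK121ub), 12 (both), 1 (H3K27me3) and 27 (neither). This smaller set had 11 mixed paralogous groups, and its shares were 56.9% with H2AK121ub and 20% with H3K27me3, which met the limit. Its counts were held to those over all 323 members. For H2AK121ub alone, neither mark and mixed groups, a set of 65 could not meet that limit whatever its marks. In alternatives chosen after seeing the data, the 211 members with a close paralog held 93 (H2AK121ub) and 28 (both), which were also held to the counts over all members. The large minus small subunit difference turned to −1.73 points in these 211 members and to −0.154 points in members of at least 90% unique sequence. In the 250 bp before the TSS, telo-boxes were found in 16.4% of members (19.0% with H2AK121ub, 12.5% without) and site II in 57.9% (54.7% without H2AK121ub). The 9 letter telo-box was found in 22.6% (21.0% with H2AK121ub, 25% without). No paired analysis was possible because replicates were merged before deposit and no result comes from a test. The lists give no depth, so weak or narrow marking below the peak threshold cannot be told from none.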

Other observations

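Body cover by H2AK121ub differed with the number of coding exons, in ribosomal protein genes and in other genes. In the 42 ribosomal protein genes with 1 coding exon the mean body cover was 33.6%, against 53.1% in other genes with 1 coding exon and equal length. With 2 coding exons it was 24.9% (49 genes), against 43.3%, with 3 it was 18.6% (63 genes), against 39.7%, with 4 it was 13.5% (81 genes), against 35.8%, and with 5 it was 10.98% (51 genes), against 27.6%. With 6 or more it was 14.0% (37 genes), against 21.9%. At least 50% of the body was under H2AK121ub in 15 of the 42 genes with 1 coding exon and in 3 of the 51 with 5. Genes with few coding exons were also shorter (median 1015 bp with 1 coding exon and 1743 bp with 5), and the part of length within these values was not tested. High cover was not limited to genes with 1 coding exon: of the 6 genes with the whole body under H2AK121ub, AT5G40040, RPL12-B and AT5G63070 have 1, AT1G56045 and AT2G40205 have 2 and AT2G37600 has 3.

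The share of ribosomal protein genes with H2AK121ub was lower than at equal length on each of the 5 chromosomes. It was 61.6% of 73 genes on chromosome 1 (against 70.2%), 59.6% of 52 on chromosome 2 (against 69.0%), 65.4% of 81 on chromosome 3 (against 70.0%), 59.0% of 39 on chromosome 4 (against 71.1%) and 55.1% of 78 on chromosome 5 (against 70.7%). The members' regions held 202 distinct H2AK121ub peaks and 52 distinct H3K27me3 peaks.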
